A study of Macaca mulatta with 5 samples.

Results

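The genes described here encode 4 alpha subunits (GABRA2, GABRA3, GABRA4, GABRA5), 2 beta subunits (GABRB1, GABRB2) and gamma 1 (GABRG1), chosen by name, in nuclei of the macaque claustrum, a thin sheet of grey matter between insula and striatum. Of these 7 genes, 6 were found by their symbol among 21761 gene identifiers in all 5 count matrices. No row bore the symbol GABRB1. The identifier ENSMMUG00000004314, which the files list under the symbol of another gene, is GABRB1 in the table of identifiers and symbols, and it was used as GABRB1, so that 7 of 7 genes were measured.

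GABA-A receptors are chloride channels opened by the inhibitory transmitter GABA, and each channel is built as a pentamer, usually from alpha, beta and gamma subunits. The alpha subunit sets much of the channel's kinetics, drug sensitivity and place on the cell: in rodent brain, alpha 2 is typical of synapses on the axon initial segment and on dendrites, alpha 3 of monoaminergic and deep cortical neurons, alpha 4 of channels outside synapses in forebrain and striatum, and alpha 5 of extrasynaptic channels of hippocampal and deep cortical pyramidal cells. Beta subunits hold part of the GABA binding site and are needed for export to the membrane, and gamma 1 is a less common relative of the gamma 2 subunit found at most synapses.

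The tissue was frozen claustrum of 2 untreated healthy male rhesus macaques, 1 animal of 18 months with 3 libraries and 1 animal of 17 months with 2 libraries. Single-nucleus RNA was counted as unique molecular identifiers (UMIs, 1 per captured RNA molecule) with a 3' kit of version 3. Libraries of an age share an animal, so p-values between libraries measure only the spread between these libraries, and age cannot be told apart from the animal. In the RefSeq annotation of assembly T2T-MMU8v2.0, GABRG1, GABRA2, GABRA4 and GABRB1 lie close together in that order, with COX7B2 between GABRA2 and GABRA4, whereas GABRA5 lies next to GABRG3 and GABRA3 next to GABRQ.

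After removal of 359 barcodes with fewer than 500 genes and 2555 likely doublets, 37091 nuclei remained. Library totals ran from 47512670 to 70896967 UMIs and median UMIs per nucleus from 2976 to 3485. Nuclei were clustered without the genes described here and named by markers. The excitatory nuclei comprised 5155 claustrum-like nuclei (clusters E1, E2, E4 and E7, named for claustrum markers such as NR4A2, 251 CPM here and 31.5 CPM in unnamed excitatory nuclei), 2281 nuclei of 2 clusters left unnamed (E3, led by ERG, MLXIPL and NXPH2, and E5, led by KIRREL1 and VIT), 636 nuclei like corticothalamic (CT) cells of layer 6, 323 like intratelencephalic (IT) cells of layer 4/5 and 179 like layer 6b cells. Of the claustrum-like clusters, E2 alone had a claustrum marker, SMYD1, among its 10 leading genes, and E1 had 1 marker of another class, CUX1, and none of its own. The layer 6b-like cluster (E9) likewise had none of its own there and 1 of another, TLE4. E4 and E7 had no marker of either kind there. The names of E1, E4, E7 and E9 thus rest on the marker lists as a whole and not on their leading genes. The inhibitory nuclei comprised 697 PVALB-type, 364 SST-type, 729 VIP-type, 297 LAMP5 or NDNF-type and 158 SNCG or CCK-type nuclei and 371 left unnamed. PVALB itself stood at only 7.40 CPM in the PVALB-type. Striatal projection-type neurons were split into 913 indirect (605 CPM of DRD2) and 836 direct pathway-type nuclei (14.6 CPM of DRD1). A cluster of 399 neurons led by FOXP2, EYA2, NPFFR2 and TSHZ1, called B17, stayed unnamed, and 1876 nuclei with few UMIs (cluster B8) were set aside. Glia were 1180 astrocytes, 2058 oligodendrocyte precursors, 14595 oligodendrocytes and 2826 microglia, and there were 742 vascular nuclei. Levels are given as counts per 1000000 UMIs (CPM) of the summed nuclei of a class in a library, 1 value per library in the order of their numbers, and only sums of at least 20 nuclei were used. Whether reads in introns were counted is not given in the sources used here, so a gene's level is set against the same gene in other classes and not against other genes. Free RNA reaches every droplet, and the oligodendrocyte level, from a class that holds no neuronal synapses, is given beside the low values. Oligodendrocyte nuclei held fewer UMIs (cluster medians of 1806 to 2890) than neurons, the direct pathway-type for example (median 13822.5). Their CPM is therefore a reference value and not a floor for deeper nuclei. Barcodes shared between libraries numbered 197, and leaving them out ended no call of a subunit gene.

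**Figure D1:**
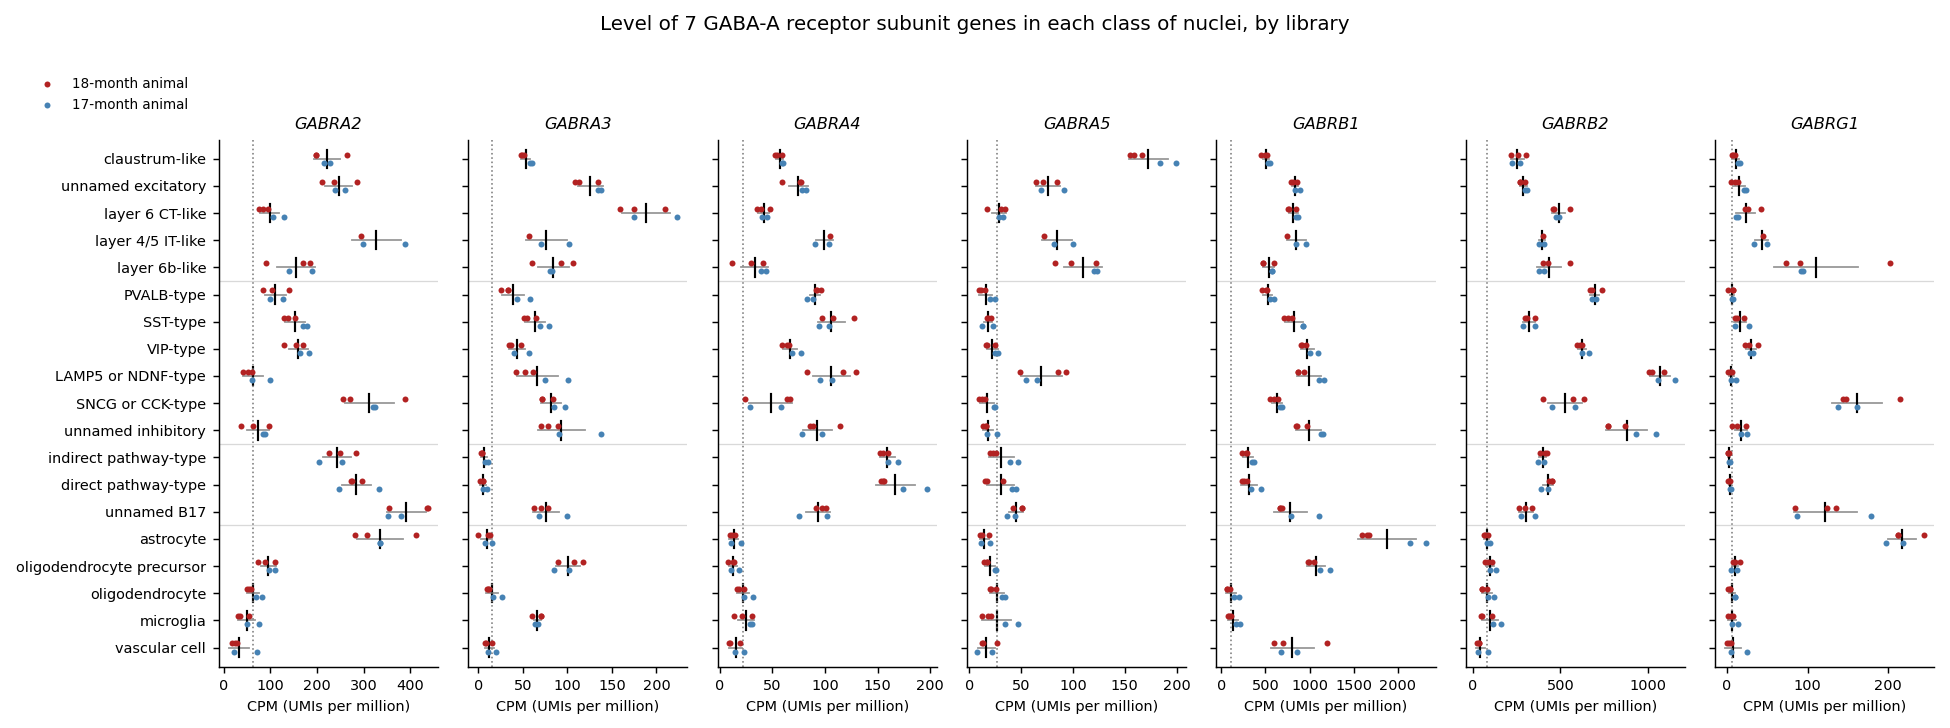
Level of each subunit gene (x axes, CPM) in 19 classes of nuclei (rows), with 1 point per library of at least 20 nuclei, red for the 18-month animal and blue for the 17-month animal. Black ticks mark the mean over libraries, grey bars 1 SD to either side, and dotted lines the oligodendrocyte mean: GABRA5 is highest in claustrum-like nuclei (155 to 199.7 CPM), GABRA4 in the striatal types and GABRB1 in astrocytes (1595 to 2315 CPM).

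Within the excitatory neurons, the claustrum-like nuclei had more GABRA5 and less GABRA3 and GABRG1 than the pooled other excitatory nuclei of the same tissue. GABRA5, the alpha 5 subunit of extrasynaptic channels, stood at 167, 159 and 155 CPM (18 months) and 184 and 199.7 CPM (17 months) for claustrum-like nuclei. The other excitatory nuclei held 64.5, 60.8 and 75.5 CPM (18 months) and 67.2 and 81.0 CPM (17 months), each below every claustrum-like value. The claustrum-like mean was 173 ± 18.7 CPM (SD, n = 5), against 69.8 ± 8.27 CPM (SD, n = 5, log2 fold change of 1.31, SE 0.05, adjusted p = 1.65e-09). GABRA3, the alpha 3 subunit, moved the opposite way, with 51.5, 48.9 and 47.9 CPM (18 months) and 59.9 and 57.9 CPM (17 months) for claustrum-like nuclei. In the other excitatory nuclei it stood at 141, 111 and 122 CPM (18 months) and 141 and 134 CPM (17 months). Again the ranges did not overlap (log2 fold change of -1.29, SE 0.04, adjusted p = 2.00e-10). Taken by cluster, each of E1, E2, E4 and E7 lay above the pooled other excitatory nuclei in GABRA5 (at least 95.2 CPM in every library, E1 185 to 205 CPM) and below them in GABRA3 (at most 82.8 CPM, E1 48.2 to 65.3 CPM). Single clusters of that pool were not all apart. Layer 6b-like (E9) and layer 4/5 IT-like nuclei (E8) held 83.0 to 124 and 71.7 to 99.7 CPM of GABRA5, overlapping E2 (95.2 to 179 CPM). Of GABRA3 they held 60.4 to 107 and 56.7 to 102 CPM, overlapping E1, E4 and E7. GABRG1, for gamma 1, was scarce in both groups, at 10.6 ± 4.64 CPM (SD, n = 5) for claustrum-like nuclei, against 22.4 ± 4.88 CPM (SD, n = 5) for the others (log2 fold change of -1.13, SE 0.21, adjusted p = 0.00786). Its ranges overlapped, and oligodendrocytes held 5.91 ± 3.89 CPM. This call was lost without 18-month library 2, where the log2 fold change was -0.95, and against the unnamed clusters alone, where it was -0.44. Within the pool, E3 had a mean of 6.26 CPM of GABRG1, below the claustrum-like mean and that of E1 (16.1 CPM). Means of E5, layer 6 CT-like, layer 4/5 IT-like and layer 6b-like nuclei were 38.9, 23.1, 42.9 and 110 CPM. Low GABRG1 was thus not particular to claustrum-like nuclei. Calls here need an adjusted p under 0.05 in edgeR's quasi-likelihood test (Benjamini-Hochberg adjustment over all genes tested) and a log2 fold change of at least 1 in either direction, and 8.19% of 10849 genes met both, as did 3 of the 7 subunit genes. GABRB1 and GABRB2 fell short of the fold threshold, with log2 fold changes of -0.68 and -0.41 at adjusted p of 3.57e-08 and 5.09e-04. GABRA2 had a log2 fold change of -0.02 and GABRA4 one of -0.26.

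The other excitatory nuclei were themselves uneven in their alpha subunits. Layer 6 CT-like nuclei had the highest GABRA3 of all classes, with 209.8, 159.6 and 175 CPM (18 months) and 223 and 175 CPM (17 months), all above the 109 to 138 CPM of the unnamed excitatory nuclei. The same nuclei had 17.2, 30.3 and 34.5 CPM (18 months) and 28.1 and 32.1 CPM (17 months) of GABRA5, close to the values in oligodendrocytes (20.1 to 34.4 CPM), and GABRA2 at 98.4 ± 20.9 CPM (SD, n = 5), below the 198 to 265 CPM of claustrum-like nuclei. In layer 6b-like nuclei GABRA5 reached 109.5 ± 18.1 CPM (SD, n = 5), and in layer 4/5 IT-like nuclei 84.5 ± 14.2 CPM (SD, n = 3). GABRA2 was high in the layer 4/5 IT-like nuclei (327 ± 52.5 CPM, SD, n = 3). GABRG1 stood out in layer 6b-like nuclei (cluster E9), with 202, 91.1 and 73.1 CPM (18 months) and 94.0 and 91.8 CPM (17 months), although these sums held few nuclei (179 over 5 libraries). Of 7 astrocyte markers, 1 was at 10 CPM or more in that class, and AQP4 and GJA1 stood at 3.28 and 2.63 CPM, against 535 and 308 CPM in astrocytes.

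**Figure D2:**
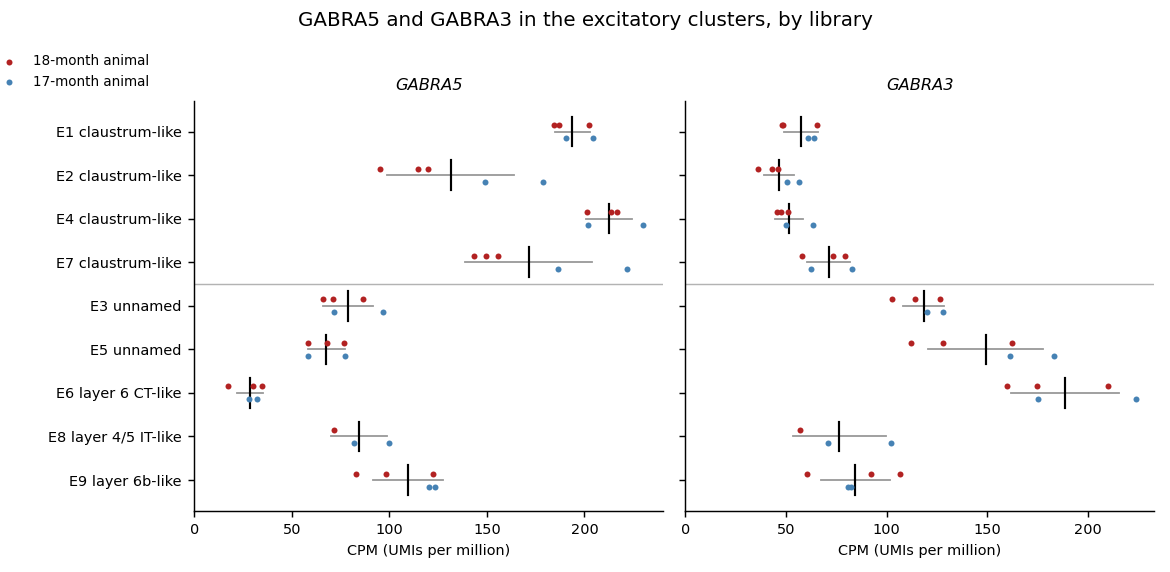
GABRA5 (left) and GABRA3 (right) in CPM (x axes) in the excitatory clusters (rows), 1 point per library with at least 20 nuclei, red for the 18-month animal and blue for the 17-month animal, with black ticks at the mean and grey bars for 1 SD to either side. The 4 claustrum-like clusters above the grey line lie at means of 131 to 213 CPM of GABRA5, and the layer 6 CT-like cluster E6 has the highest GABRA3.

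Among the claustrum-like clusters, 0 of the 7 genes met both thresholds when each cluster was set against the mean of the others on the log scale (edgeR; 4 to 7 genes per cluster at an unadjusted p under 0.05, and 0 called by DESeq2). Over the 4 clusters together 1.95% of 37576 tests of a gene in a cluster met both. The clusters were led by SNTB1 and GRIK1 (E1), FSHR and SMYD1 (E2), SLC17A8 and CCDC141 (E4) and CCDC192 and DRD2 (E7). Graded differences below the fold threshold were present. GABRG1 came nearest to it, at 16.1 ± 4.99 CPM (SD, n = 5) in E1 (log2 fold change of 0.97, SE 0.19, adjusted p = 8.40e-04) and 7.36 ± 5.85 CPM (SD, n = 5) in E2 (log2 fold change of -0.64, SE 0.22, adjusted p = 0.0507). It met both thresholds in E1 without 17-month library 1 (1.05), without 17-month library 2 (1.01) and with clusters from another random set of genes (1.21), and in E2 without 17-month library 1 (-1.03). GABRA5 was lowest in E2, at 120.0, 115 and 95.2 CPM (18 months) and 149 and 179 CPM (17 months). It was highest in E4, at 217, 214 and 201 CPM (18 months) and 202 and 229.8 CPM (17 months), and the ranges of these 2 clusters did not overlap. The fold of E2 against the mean of the other 3 clusters was small, with a log2 fold change of -0.54, SE 0.08, adjusted p = 2.85e-04. GABRB2, for beta 2, ran from 174 ± 53.0 CPM (SD, n = 5) in E4 to 337 ± 13.1 CPM (SD, n = 5) in E7, with log2 fold changes of -0.78 and 0.61. GABRB1, for beta 1, was highest in E1 (647 ± 42.1 CPM, SD, n = 5, log2 fold change 0.42) and lowest in E2 (407 ± 35.8 CPM, SD, n = 5, log2 fold change -0.38). GABRA2 was highest in E4 (292 ± 52.5 CPM, SD, n = 5) and GABRA4 in E7 (84.2 ± 12.5 CPM, SD, n = 5).

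Excitatory nuclei as a whole had more GABRA5 and less GABRB2 than inhibitory nuclei. GABRA5 stood at 133, 116 and 128 CPM (18 months) and 136 and 150.3 CPM (17 months) in excitatory nuclei. In inhibitory nuclei it stood at 21.6, 19.0 and 22.3 CPM (18 months) and 28.0 and 25.7 CPM (17 months) (log2 fold change of 2.59, SE 0.06, adjusted p = 3.77e-15). The inhibitory values lay around those of oligodendrocytes (20.4, 25.7, 20.1, 34.4 and 31.8 CPM in the same order of libraries). Oligodendrocyte nuclei held fewer UMIs than inhibitory nuclei, and the part of free RNA in the inhibitory values was not tested. GABRB2 was 288 ± 27.1 CPM (SD, n = 5) in excitatory nuclei, against 673 ± 32.9 CPM (SD, n = 5) in inhibitory nuclei, without overlap (log2 fold change of -1.15, SE 0.06, adjusted p = 2.30e-09). These 2 of 7 genes met both thresholds, beside 15.4% of 11212 genes. GABRA2 differed by less than the fold threshold, at 222 ± 23.8 CPM (SD, n = 5) in excitatory and 133 ± 20.3 CPM (SD, n = 5) in inhibitory nuclei (log2 fold change of 0.83, SE 0.05, adjusted p = 3.28e-10), as did GABRA3, GABRA4, GABRB1 and GABRG1, with log2 fold changes of 0.62, -0.41, -0.25 and -0.69.

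Inhibitory subclasses differed in 2 distinct ways: LAMP5 or NDNF-type nuclei had the alpha 5 and beta 2 genes high and the alpha 2 and gamma 1 genes low, and SNCG or CCK-type nuclei had alpha 2 and gamma 1 high. Each subclass was set against the mean, on the log scale, of the other 4 named subclasses, which share libraries, so the 5 contrasts are not independent. In LAMP5 or NDNF-type nuclei GABRA5 stood at 86.0, 48.8 and 93.5 CPM (18 months) and 64.9 and 54.6 CPM (17 months), against 9.19 to 24.2 CPM in the PVALB-type, 12.4 to 22.4 CPM in the SST-type, 15.6 to 27.6 CPM in the VIP-type and 8.88 to 24.4 CPM in the SNCG or CCK-type. All 5 values exceeded every value of the other 4 subclasses (log2 fold change of 1.99, SE 0.17, adjusted p = 1.67e-15), and they also exceeded those of oligodendrocytes (20.1 to 34.4 CPM). GABRB2 was 1068 ± 58.6 CPM (SD, n = 5) in the same nuclei (log2 fold change of 1.08, SE 0.06, adjusted p = 1.17e-23), the highest mean of all classes. GABRA2 was 62.3 ± 21.3 CPM (SD, n = 5, log2 fold change of -1.36, SE 0.12, adjusted p = 3.90e-15), close to the 63.1 ± 13.4 CPM of oligodendrocytes within their spread, and GABRG1 was 5.48 ± 3.39 CPM (SD, n = 5, log2 fold change of -2.13, SE 0.34, adjusted p = 5.69e-07), also at the oligodendrocyte level. The folds of GABRA2 and GABRG1 are set against a mean that includes the SNCG or CCK-type, where both genes were high. Likewise, the GABRB2 fold, close to the threshold, is set against a mean that includes the SST-type, where GABRB2 was low (322 ± 32.1 CPM, SD, n = 5). The GABRA2 fold fell just short of the threshold, at -0.95, when sums of at least 50 nuclei were required. That setting left no sum of the SNCG or CCK-type (20 to 44 nuclei per library), so this subclass was missing from the reference. These 4 of 7 genes met both thresholds, beside 6.79% of 7080 genes. Low GABRA2 and GABRG1 were not confined to this subclass. GABRA2 had means of 44.8 CPM in the unnamed inhibitory cluster I4 and 47.6 CPM in the PVALB-type cluster I9. GABRG1 had a mean of 5.81 CPM in the PVALB-type.

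SNCG or CCK-type nuclei, marked by the cannabinoid receptor gene CNR1 (2566 CPM), had GABRG1 at 144, 147 and 215 CPM (18 months) and 161 and 137 CPM (17 months). No library of another named inhibitory subclass exceeded 38.1 CPM (log2 fold change of 3.86, SE 0.17, adjusted p = 6.77e-30). GABRA2 was 255, 270.2 and 388 CPM (18 months) and 325 and 320.4 CPM (17 months) (log2 fold change of 1.46, SE 0.09, adjusted p = 6.53e-21), above every value of the other 4 subclasses. These 2 of 7 genes met both thresholds, beside 5.30% of genes tested, and the class rests on 158 nuclei. Of the 7 astrocyte markers, only SLC1A2 was at 10 CPM or more in these nuclei, and AQP4 stood at 4.74 CPM. VIP-type nuclei had GABRG1 at 29.7 ± 5.90 CPM (SD, n = 5), most of it in cluster I7 (77.6 ± 34.6 CPM, SD, n = 5, led by ARHGAP18 and COL4A4) and little in I6 (3.39 ± 1.98 CPM, SD, n = 5). In the VIP-type 0 of the 7 genes met both thresholds (edgeR; 5 at an unadjusted p under 0.05, and 0 called by DESeq2), beside 4.70% of genes tested. In the SST-type, GABRB2 alone did, at 299.7, 355 and 309 CPM (18 months) and 288 and 356 CPM (17 months) (log2 fold change of -1.13, SE 0.07, adjusted p = 3.95e-21), beside 5.59%. Every other named subclass had more GABRB2 in each library, 668 to 737 CPM in the PVALB-type for example. The reference of this fold, itself close to the threshold, includes the LAMP5 or NDNF-type, where GABRB2 was highest (1068 ± 58.6 CPM, SD, n = 5). In the PVALB-type, GABRG1 alone met both thresholds, at 5.81 ± 2.27 CPM (SD, n = 5), close to the oligodendrocyte level (log2 fold change of -2.18, SE 0.26, adjusted p = 1.57e-10), beside 5.92%. Its reference includes the SNCG or CCK-type, where GABRG1 was high. The PVALB-type was not uniform. Cluster I9 (led by PLEKHD1, ADAMTS5 and UNC5B) had GABRB1 at 124 ± 26.3 CPM (SD, n = 4), against 611 ± 62.8 CPM (SD, n = 5) in I1, and GABRA4 at 12.5 ± 10.3 CPM (SD, n = 4), against 109.6 ± 9.54 CPM (SD, n = 5) in I1, while GABRB2 was 603 ± 90.2 CPM (SD, n = 4) in I9 and 737 ± 43.7 CPM (SD, n = 5) in I1. That comparison of clusters is given as levels without a test.

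Striatal projection-type nuclei had more GABRA2 and GABRA4 and less GABRA3, GABRB1 and GABRG1 than the inhibitory nuclei, 5 of 7 genes beside 22.8% of 9597 genes. GABRA4, the alpha 4 subunit of channels outside synapses, stood at 158, 154 and 154 CPM (18 months) and 167 and 184 CPM (17 months) in striatal nuclei. Inhibitory nuclei held 92.2, 87.1 and 86.6 CPM (18 months) and 84.4 and 81.8 CPM (17 months) (log2 fold change of 1.15, SE 0.06, adjusted p = 3.22e-11). Both striatal types lay above every other class in each library. GABRA2 was 263 ± 28.3 CPM (SD, n = 5) in striatal nuclei, against 133 ± 20.3 CPM (SD, n = 5) in inhibitory nuclei (log2 fold change of 1.25, SE 0.07, adjusted p = 2.04e-09). GABRA3 was almost missing, at 2.90, 4.55 and 4.68 CPM (18 months) and 8.90 and 8.06 CPM (17 months) in striatal nuclei. Inhibitory nuclei held 48.8, 48.2 and 48.6 CPM (18 months) and 63.8 and 78.5 CPM (17 months) (log2 fold change of -3.13, SE 0.12, adjusted p = 1.02e-12). Each striatal value lay under the oligodendrocyte range of 9.70 to 26.2 CPM, which comes from nuclei with fewer UMIs. The part of free RNA in the striatal values was not tested. GABRB1 was 310.0 ± 69.1 CPM (SD, n = 5) in striatal nuclei, against 789 ± 89.6 CPM (SD, n = 5) in inhibitory nuclei (log2 fold change of -1.12, SE 0.06, adjusted p = 3.63e-11), and GABRG1 was 2.76 ± 1.18 CPM (SD, n = 5), against 25.6 ± 4.33 CPM (SD, n = 5, log2 fold change of -3.05, SE 0.21, adjusted p = 4.76e-09). Here too the striatal mean lay under the 5.91 ± 3.89 CPM of oligodendrocytes. The fold changes are scaled by the trimmed mean of M values (TMM), while the median gene's ratio of CPM was -0.19 on the log2 scale in this comparison, so the folds stand higher than the CPM ratios by about that much. Thus GABRA5 had a log2 fold change of 0.56 although its CPM was higher in only 3 of 5 libraries, at 30.5 ± 12.3 CPM (SD, n = 5) in striatal and 23.3 ± 3.53 CPM (SD, n = 5) in inhibitory nuclei. The log2 fold changes of GABRA4 and GABRA2, 1.15 and 1.25, are near enough to the threshold of 1 for this scaling to bear on their calls.

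Between indirect and direct pathway-type nuclei the log2 fold changes of the 6 genes tested ran from -0.17 for GABRA3 to 0.03 for GABRB1. Of these, 0 met both thresholds (edgeR; 2 at an unadjusted p under 0.05, and 0 called by DESeq2), beside 1.12% of 8045 genes, and GABRG1 was too low to be tested. GABRA2 differed most by p, with 226, 249.7 and 283 CPM (18 months) and 254 and 204 CPM (17 months) in indirect type nuclei. Direct type nuclei held 274, 272 and 296 CPM (18 months) and 332 and 248 CPM (17 months) (log2 fold change of -0.16, SE 0.05, adjusted p = 0.0333). The ranges overlapped. For GABRA4 the log2 fold change was -0.01 and for GABRB2 -0.09. The 2 indirect clusters differed from each other in GABRB2, at 457 ± 49.7 CPM (SD, n = 5) in S2 and 329 ± 28.1 CPM (SD, n = 5) in S3. Cluster B17 had another pattern than the striatal types, with GABRG1 at 135, 84.4 and 124 CPM (18 months) and 86.6 and 179 CPM (17 months), GABRA3 at 76.1 ± 14.4 CPM (SD, n = 5) and the highest mean GABRA2 of all classes, 392 ± 42.3 CPM (SD, n = 5). It entered no test.

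Astrocytes had GABRA2, GABRB1 and GABRG1 high, and oligodendrocyte precursors GABRA3 and GABRB1. Each of the 4 main glial classes was set against the mean, on the log scale, of the other 3. GABRB1 stood at 1652, 1679 and 1595 CPM (18 months) and 2138 and 2315 CPM (17 months) in astrocytes (log2 fold change of 2.92, SE 0.12, adjusted p = 1.99e-13), above every other class of nuclei. In the precursors it was 1055, 979.9 and 998 CPM (18 months) and 1113 and 1232 CPM (17 months) (log2 fold change of 2.01, SE 0.12, adjusted p = 1.04e-10), against 114 ± 56.0 CPM (SD, n = 5) in oligodendrocytes and 131 ± 54.2 CPM (SD, n = 5) in microglia. GABRG1 was 213, 211 and 245 CPM (18 months) and 197 and 218 CPM (17 months) in astrocytes (log2 fold change of 4.88, SE 0.26, adjusted p = 5.50e-10), and the other 3 classes ranged from 0.978 to 15.5 CPM. GABRA2 was 282, 413 and 308 CPM (18 months) and 336 and 335 CPM (17 months) in astrocytes (log2 fold change of 2.32, SE 0.08, adjusted p = 3.60e-18), without overlap with the other glia. With GABRA3, which was lower at 9.44 ± 5.97 CPM (SD, n = 5, log2 fold change of -2.17, SE 0.33, adjusted p = 3.18e-05), 4 of 7 genes met both thresholds in astrocytes, beside 19.8% of 8653 genes. GABRB2 was 80.4 ± 14.9 CPM (SD, n = 5) in astrocytes and 79.6 ± 28.7 CPM (SD, n = 5) in oligodendrocytes.

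Oligodendrocyte precursors had GABRA3 at 89.7, 107 and 118 CPM (18 months) and 102 and 84.8 CPM (17 months) (log2 fold change of 2.33, SE 0.19, adjusted p = 2.54e-08), and 2 of 7 genes met both thresholds there, beside 17.0%. Microglia also held GABRA3, at 69.9, 70.1 and 60.6 CPM (18 months) and 67.1 and 63.6 CPM (17 months) (log2 fold change of 1.23, SE 0.22, adjusted p = 1.09e-04), above every value of the oligodendrocytes (9.70 to 26.2 CPM) that shared their libraries. The other members named in microglia, GABRA2, GABRB1 and GABRG1, were lower, with log2 fold changes of -1.53, -2.43 and -2.01, which makes 4 of 7 genes beside 26.1%. In oligodendrocytes 3 of 7 met both thresholds, all lower, GABRA3, GABRB1 and GABRG1 with -1.40, -2.49 and -2.01, beside 20.3%. The lower GABRG1 and GABRB1 of these 2 classes and the lower GABRA2 of microglia are set against a mean that includes the astrocytes. GABRA2 was 49.4 ± 18.1 CPM in microglia, 63.1 ± 13.4 CPM in oligodendrocytes and 95.6 ± 15.4 CPM in precursors (SD, n = 5 each). Vascular nuclei, which entered no test, had GABRB1 at 700.5, 598 and 1197 CPM (18 months) and 673 and 863 CPM (17 months). Astrocyte markers summed to 1044, 568, 404, 2154 and 519 CPM in the same order of libraries, with 5 of 7 at 10 CPM or more (GFAP 374, AQP4 68.1 CPM), against 15578 CPM (range 13459 to 17445) in astrocytes. GABRB1 was highest in the vascular library with the lowest astrocyte marker sum.

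**Figure D3:**
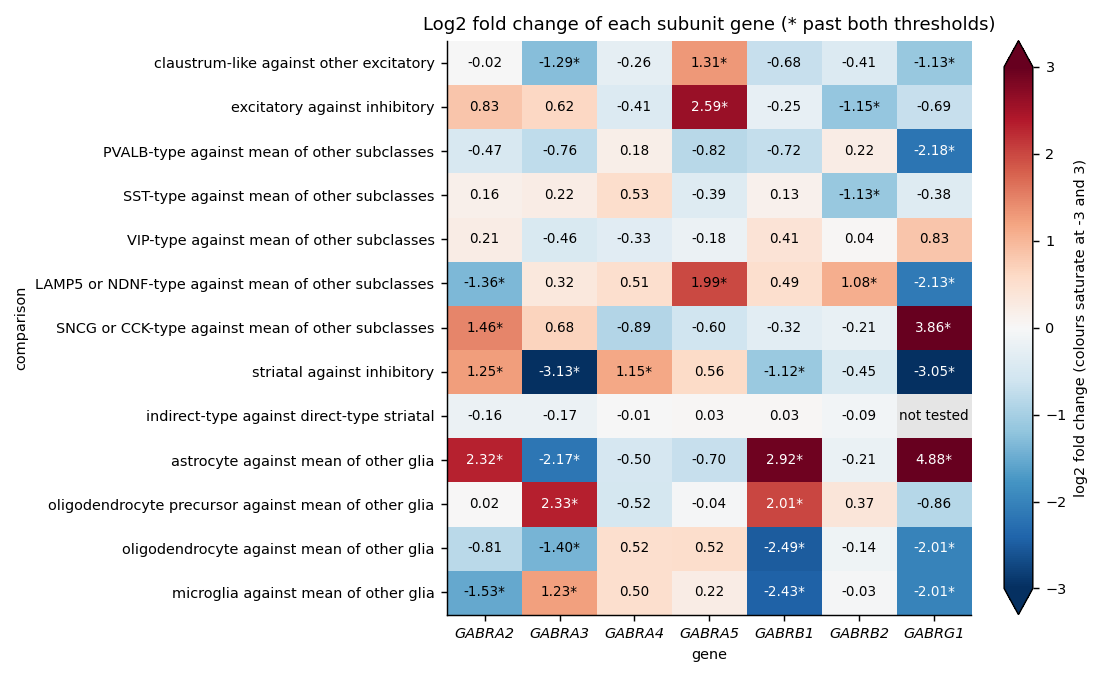
Log2 fold change (colour and printed value) of the 7 genes (columns) in 13 comparisons (rows), positive where the class named first was higher. Asterisks mark an adjusted p under 0.05 with a log2 fold change of at least 1 in either direction: the largest are GABRG1 in astrocytes (4.88) and in SNCG or CCK-type nuclei (3.86).

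Thinned to 2000 UMIs per nucleus, which puts classes of unequal depth on 1 footing, the shares of nuclei with at least 1 UMI followed the same order for the genes with the clearest patterns. GABRA5 was seen in 27.4% ± 2.89 of claustrum-like nuclei, against 13.0% ± 1.36 of other excitatory nuclei and 4.90% ± 1.46 of oligodendrocytes (mean ± SD in percentage points over 5 libraries). Without thinning the first 2 shares were 83.8% and 53.9%, at median depths of 16263 and 15125 UMIs, and that of oligodendrocytes 6.12% at 2422 UMIs. GABRB1 was seen in 94.4% ± 2.27 of thinned astrocytes, 83.4% ± 3.72 of oligodendrocyte precursors and 19.0% ± 8.20 of oligodendrocytes. GABRG1 was seen in 32.5% ± 3.54 of thinned astrocytes, 26.0% ± 5.13 of SNCG or CCK-type nuclei and 23.3% ± 8.98 of layer 6b-like nuclei, against 1.18% ± 0.947 of oligodendrocytes. For GABRA3 the shares were 32.6% ± 3.95 in layer 6 CT-like nuclei, 16.9% ± 2.42 in oligodendrocyte precursors and 10.7% ± 1.70 in microglia, against 2.97% ± 1.50 in oligodendrocytes. Without thinning, GABRG1 was seen in 46.8% of astrocytes (median 3786 UMIs), 67.7% of SNCG or CCK-type nuclei (9772 UMIs) and 1.42% of oligodendrocytes. Likewise GABRB1 was seen in 96.3% of astrocytes and 23.2% of oligodendrocytes, and GABRA3 in 79.5% of layer 6 CT-like nuclei (median 13542 UMIs), 11.6% of microglia (2036 UMIs) and 3.57% of oligodendrocytes. Thinning left out 7569 nuclei with fewer UMIs, mostly glia: 1484 of 2826 microglia were kept.

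The mix of alpha subunit UMIs separated the classes. Of the UMIs of the 4 alpha genes, GABRA5 gave 34.3% ± 2.85 in claustrum-like nuclei, against 14.5% ± 1.66 in the unnamed excitatory and 8.09% ± 2.33 in the layer 6 CT-like nuclei (mean ± SD in percentage points, n = 5). GABRA3 gave 52.8% ± 4.64 in layer 6 CT-like nuclei, against 10.6% ± 0.803 in claustrum-like nuclei. In striatal nuclei GABRA2 and GABRA4 together made up most alpha UMIs, 56.9% ± 4.60 and 35.4% ± 3.19, and GABRA3 only 1.24% ± 0.482. Astrocytes were nearly all GABRA2 (90.1% ± 2.75), while oligodendrocyte precursors split between GABRA3 (44.1% ± 4.96) and GABRA2 (41.7% ± 3.11). In LAMP5 or NDNF-type nuclei the shares ran from 20.5% ± 6.35 for GABRA2, whose level there was close to that of oligodendrocytes, to 34.9% ± 4.78 for GABRA4. Of the UMIs of both beta genes, GABRB1 gave 95.9% ± 0.681 in astrocytes, 91.5% ± 1.79 in oligodendrocyte precursors and 94.5% ± 3.66 in vascular nuclei, against 42.5% ± 5.87 in striatal and 43.1% ± 2.30 in PVALB-type nuclei. The SST-type, at 71.8% ± 2.75, lay above the other named inhibitory subclasses. These are shares of counted molecules of the listed genes, to be compared between classes. They leave out the other alpha and beta subunit genes.

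**Figure D4:**
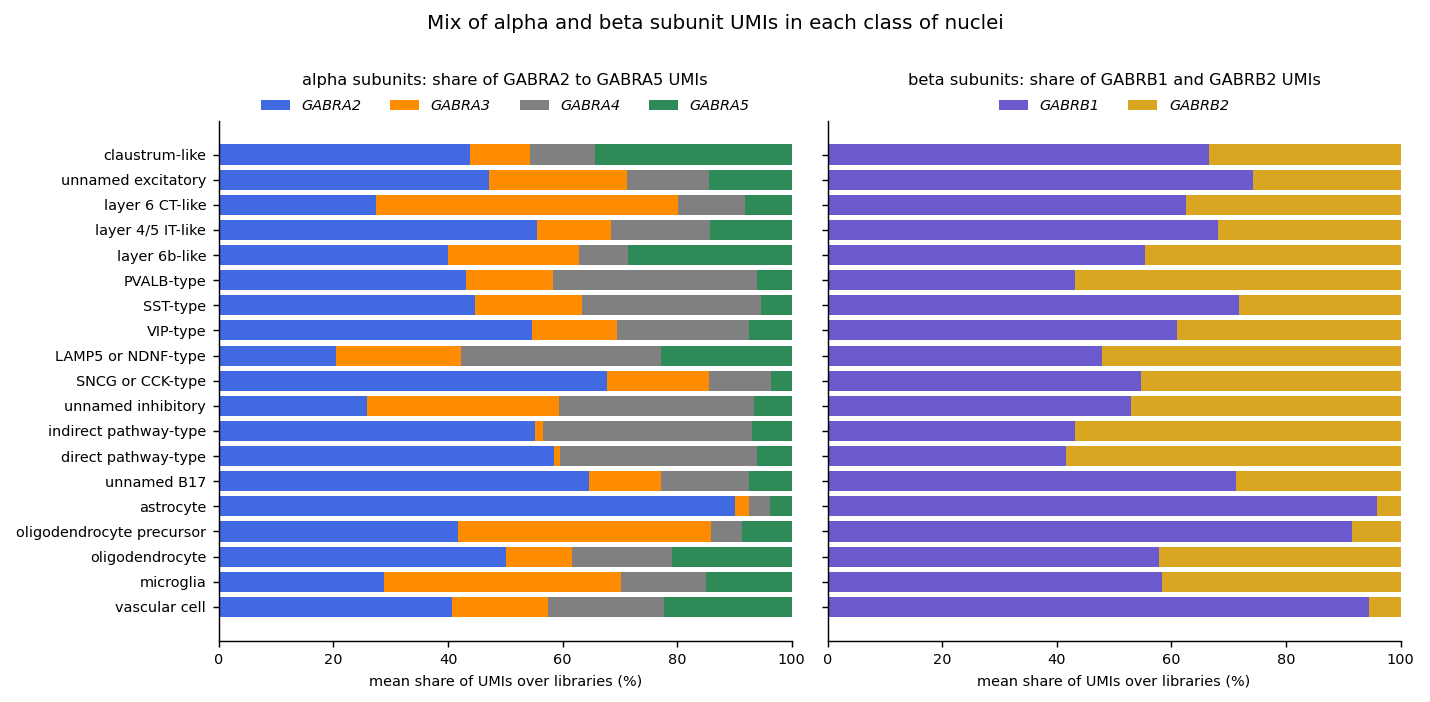
Share of UMIs (x axes, percent, mean over libraries) that each alpha gene (left) and each beta gene (right) gave in 19 classes of nuclei (rows), the 4 alpha and the 2 beta genes each summing to 100. GABRA5 takes 34.3% in claustrum-like nuclei, GABRA3 52.8% in layer 6 CT-like nuclei and GABRA2 90.1% in astrocytes.

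Ordered by mean level, few neighbouring classes differed beyond the range of their libraries, and all that did are given here. For GABRA2, claustrum-like nuclei stood above the VIP-type. For GABRA4, the indirect pathway-type stood above the SST-type, and the PVALB-type above the unnamed excitatory nuclei. For GABRA5, claustrum-like nuclei stood alone at the top and no other neighbours were apart. For GABRA3, layer 6 CT-like nuclei stood above the next class, the unnamed excitatory nuclei. For GABRB1, astrocytes stood above the precursors, and claustrum-like nuclei stood above the striatal types, which in turn stood above microglia. For GABRB2, the LAMP5 or NDNF-type and the unnamed inhibitory nuclei (878 ± 115 CPM, SD, n = 5) stood above the PVALB-type, and the PVALB-type above the VIP-type. Lower down, layer 4/5 IT-like nuclei stood above the SST-type, and claustrum-like nuclei above oligodendrocyte precursors. For GABRG1, astrocytes, SNCG or CCK-type, B17 and layer 6b-like nuclei overlapped in turn and stood above all others. Over 30 classes and clusters, Pearson's r of log2(CPM + 1) between members was highest for GABRA4 and GABRB2 (0.74), followed by GABRA2 and GABRA4 (0.63) and GABRB1 and GABRG1 (0.63). Classes share libraries and nested clusters, so this describes likeness only. Among 7908 genes the most alike was ZDHHC8 for GABRA5 (0.90), TSPYL2 for GABRB2 (0.93), SRRM3 for GABRA4 (0.87), ELAVL4 for GABRA3 (0.85), LRGUK for GABRA2 (0.85) and CNTFR among named genes for GABRB1 (0.80). FRMPD2 was among the 3 most alike for GABRG1 (0.66).

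The other genes of GABA signalling were counted in the same fits from 4 lists, and those named below as higher or lower met both thresholds. Of 12 other GABA-A subunit genes, 6 were tested in claustrum-like against other excitatory nuclei and 0 met both thresholds (edgeR; 3 at an unadjusted p under 0.05, and 0 called by DESeq2), their median log2 fold change being 0.03, against 0.000580 over all genes. Of 14 scaffold and assembly genes and of 7 uptake, breakdown and chloride transport genes 0 did so (edgeR; 7 and 4 at an unadjusted p under 0.05, and 0 called by DESeq2). Of 5 genes of the GABA-B receptor and its KCTD partners, set beside the 8.19% of all genes, 1 was higher, KCTD16 (1324 against 515 CPM, log2 fold change 1.36, SE 0.04, adjusted p = 1.72e-10), and 2 were lower, KCTD8 (6.41 against 81.6 CPM) and the scarce KCTD12. Between claustrum-like clusters, IGSF9B, an adhesion protein of inhibitory synapses, was higher in E1 (55.8 against 22.0 CPM) and lower in E4 (9.50 against 37.5 CPM). In excitatory against inhibitory nuclei, the GABA-degrading transaminase gene ABAT was lower (44.4 against 165 CPM).

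Across the inhibitory subclasses, GABRD, for the extrasynaptic delta subunit, was higher in the PVALB-type (63.4 against 23.8 CPM) and in the LAMP5 or NDNF-type (72.0 against 21.6 CPM) and lower in the SST-, VIP- and SNCG or CCK-types (9.08 against 37.4 CPM, 6.50 against 38.0 CPM and 7.60 against 37.7 CPM). LAMP5 or NDNF-type nuclei had the GABA-B receptor gene GABBR2 higher (1060.4 against 470.3 CPM). In striatal against inhibitory nuclei, the gamma 3 gene GABRG3 was lower (422 against 1169 CPM), and of the GABA-B list GABBR2 was lower (66.3 against 635 CPM) and GABBR1 higher (255 against 114 CPM). In striatal nuclei 3 of 14 scaffold genes were higher and 2 lower, beside the 22.8% of all genes called in either direction. Between indirect and direct types, 0 of the genes of any of the 4 lists met both thresholds (edgeR and DESeq2; 1 to 4 per list at an unadjusted p under 0.05 in edgeR).

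In glia, the uptake transporter gene SLC6A11 was higher in astrocytes (136 against 18.3 CPM), as was GABBR1 (777 against 91.7 CPM), while 0 of 6 other subunit genes met both thresholds there (edgeR; 5 at an unadjusted p under 0.05, and 0 called by DESeq2). Oligodendrocyte precursors had 5 of 13 scaffold genes higher and none of these 13 lower, beside the 17.0% of all genes called in either direction. Among the 5 were IGSF9B (71.1 against 7.40 CPM), DMD (1074 against 347 CPM) and LHFPL4 (51.8 against 16.7 CPM). In microglia 5 of 13 scaffold genes were lower, beside 26.1% of all genes called in either direction, including GPHN, for the anchoring protein gephyrin (401 against 1041 CPM). In oligodendrocytes the chloride importer gene SLC12A2 was higher (278 against 47.8 CPM). The epsilon subunit gene GABRE also was, at low levels (12.7 against 0.821 CPM).

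Between the animals, GABRB1 was the subunit gene that passed most often, in 4 of 5 classes, and it was lower in the 18-month animal. The median absolute log2 fold change of the 7 genes was 0.45 in striatal, 0.21 in inhibitory and 0.11 in excitatory nuclei, against 0.22, 0.15 and 0.19 over all genes tested in the same order. With an adjusted p under 0.05 alone as the rule, 0 of 7 genes passed in excitatory nuclei (edgeR; 2 at an unadjusted p under 0.05; DESeq2 called 1, GABRG1, with a log2 fold change of -0.61 and an adjusted p of 0.0381), beside 13.5% of 15682 genes. In inhibitory nuclei 2 of 7 passed, beside 7.48%, in striatal nuclei 2 of 7, beside 11.6%, in oligodendrocyte precursors 1 of 7, beside 5.35%, and in astrocytes 1 of 5 tested, beside 5.56%. All were lower in the 18-month animal. GABRB1 in inhibitory nuclei was 740.4, 727 and 705 CPM (18 months) and 891 and 881 CPM (17 months) (log2 fold change of -0.28, SE 0.06, adjusted p = 0.00172), without overlap. In astrocytes its values, given above, did not overlap either (log2 fold change of -0.42, SE 0.08, adjusted p = 0.00135), but a block of replicate numbers ended this call (-0.40, edgeR adjusted p = 0.0609). In striatal nuclei the values were 289.6, 269 and 236 CPM (18 months) and 343 and 412 CPM (17 months) (log2 fold change of -0.45, SE 0.09, adjusted p = 0.00699), and in oligodendrocyte precursors the change was smallest (log2 fold change of -0.22, SE 0.07, adjusted p = 0.0432). Oligodendrocytes held 67.8, 104 and 60.4 CPM (18 months) and 195 and 143 CPM (17 months) of GABRB1, a difference in the same direction, and its part in the other classes was not tested. GABRA3 in inhibitory nuclei was 48.8, 48.2 and 48.6 CPM (18 months) and 63.8 and 78.5 CPM (17 months) (log2 fold change of -0.52, SE 0.10, adjusted p = 8.65e-04), beside 12.6, 10.4 and 9.70 CPM (18 months) and 26.2 and 17.1 CPM (17 months) in oligodendrocytes, a difference in the same direction whose part was not tested. In striatal nuclei, where it lay under the oligodendrocyte range, GABRA3 did not pass (log2 fold change of -0.95, SE 0.32, adjusted p = 0.0704). GABRA5 in striatal nuclei was 18.1, 28.4 and 19.9 CPM (18 months) and 45.9 and 40.3 CPM (17 months) (log2 fold change of -0.87, SE 0.20, adjusted p = 0.0136), and the oligodendrocyte values of 20.4, 25.7, 20.1, 34.4 and 31.8 CPM in the same order of libraries moved alike. Without 17-month library 2 the GABRA3 call in inhibitory nuclei and the GABRB1 and GABRA5 calls in striatal nuclei were lost (log2 fold changes of -0.38, -0.32 and -0.96), without 17-month library 1 the GABRA5 call too (-0.75), and the GABRB1 call in precursors was lost without any 1 of 4 libraries and with DESeq2, at log2 fold changes of -0.25 to -0.15. In 27 tests of whether a difference between classes depended on the animal, 0 passed (edgeR; lowest adjusted p 0.0814, 6 at an unadjusted p under 0.05).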

How the data were processed

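Nuclei of frozen claustrum were profiled in 5 libraries with a 3' droplet kit. The authors deposited a count matrix for each library, with UMI counts of genes in barcodes that were not normalized. Version 5.0.1 of Cell Ranger wrote them, per the file headers. The submitters' processing notes also name CASAVA 1.8, Seurat and the builds mm10 and Mmul_10. Which build gave these counts, and whether introns were counted, is not given in the sources used here. The subunit genes and gene lists were chosen with earlier results of these data known.

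Barcodes with at least 500 genes were kept. In each library the barcodes with the highest Scrublet scores, 0.8% for every 1000 nuclei, were removed as likely doublets. Counts were scaled, log-transformed and clustered (scanpy 1.11.5, Python 3.11.15, 30 components, Leiden) on 1 of 2 random sets of genes, free of subunit genes, list genes and markers, and clusters were named from marker lists by thresholds set after the clusters had been seen. Clustering on the other set gave the same name to 96.9% of nuclei. Genes used for clustering or naming were left out of the tests.

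Counts were summed per library and class of at least 20 nuclei and tested with edgeR 4.0.16 (R 4.3.3): TMM scaling, filterByExpr, robust quasi-likelihood fit, library as a block (none between animals), Benjamini-Hochberg adjustment. A call needs an adjusted p under 0.05 and a log2 fold change of at least 1, or between animals the adjusted p alone. CPM are means of the library values. The fit was tested on simulated counts. Alternatives were DESeq2 1.42.0, no filter, 1000 genes per nucleus, stricter doublet removal, 50 nuclei per sum, the other set's clusters, no library term, other references, each library left out, a block of replicate numbers and, added after seeing the data, barcodes shared between libraries left out. All 7 genes and every class with at least 50 nuclei that was not set aside were described, except the 58 committed oligodendrocyte precursors, which had too few nuclei per library. Of each list, the text names at most the 3 called genes with the largest fold that kept 1 direction in every library, of each cluster up to 5 leading genes, and per subunit gene 1 of the 3 most alike genes, by Pearson's r over classes, among genes with 20 CPM or more in a class. Some genes of these lists are not reported here. Library totals bound the precision: intervals between libraries cover counting and library error of these animals only.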

Additional observations from a re-analysis of the deposited data

Results flagged for a closer look

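Of 126 sets of 5 libraries (a gene in a class), 8 held a library farther from the others than Dixon's 95% limit of 0.71, where chance gives about 1 set in 20. In vascular nuclei, 17-month library 1 stood above the others in 3 genes: GABRA2 at 71.0 CPM (next library 29.2), GABRB2 at 88.6 CPM (next 35.9) and GABRG1 at 25.1 CPM (next 5.46). That library held 366 of the 742 vascular nuclei and the highest astrocyte marker sum there, 2154 CPM. Its part in these levels was not tested. GABRB1 was not among these genes, and that library's value lay within the range of the others.

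In layer 6b-like nuclei, GABRG1 reached 202 CPM in 18-month library 1 (next 94.0, 27 nuclei) and GABRB2 553 CPM in 18-month library 3 (next 428, 22 nuclei). GABRA4 was low in unnamed excitatory nuclei of 18-month library 3, at 58.7 CPM (next 76.5). GABRG1 was low in the PVALB-type of 18-month library 2, at 1.77 CPM from 3 UMIs (next 6.49). GABRA5 was high in unnamed inhibitory nuclei of 17-month library 1, at 27.0 CPM from 20 UMIs (next 16.8), which is under that library's oligodendrocyte level of 34.4 CPM.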

How the results depend on the processing

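The 37 calls of subunit genes were refitted under 485 alternatives in all. The direction held in each, and 470 kept the call. Of the 37 calls, 30 kept it throughout. The other 7 are GABRG1 in claustrum-like nuclei and GABRA2 in LAMP5 or NDNF-type nuclei, with their values above, and 5 of the 6 calls between the animals. Of these, GABRB1 in astrocytes lost its call in the block of replicate numbers (-0.40, adjusted p = 0.0609, edgeR), and GABRB1 in oligodendrocyte precursors had adjusted p of 0.0580 to 0.317 over its 7 lost settings. Results not called that gained a call, beside GABRG1 in E1 and E2 above, were as follows. The setting of at least 50 nuclei per sum left no SNCG or CCK-type sum in the reference. Under it, GABRG1 in VIP-type (2.01) and GABRA5 in PVALB-type nuclei (-1.10) gained a call. GABRA4 in SNCG or CCK-type nuclei did without 18-month library 1 (-1.05), and GABRG1 in precursors among glia without 18-month library 3 (-1.22) and with stricter doublet removal (-1.01). Between the animals, GABRG1 in excitatory nuclei did with DESeq2, without 18-month library 2 (-0.79) and in the replicate block (-0.44), GABRA2 in inhibitory nuclei without 18-month library 3 (-0.37) and in the block (-0.36), GABRA3 in striatal nuclei with the other set's clusters (-1.24) and GABRB2 in precursors without 17-month library 2 (-0.59) or 18-month library 2 (-0.57).

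Signs turned in 4 uncalled log2 fold changes: GABRA4 in claustrum-like nuclei against the layers named (0.15), GABRG1 in the SST-type with at least 50 nuclei per sum (0.48), and, between the animals in precursors without 17-month library 1, GABRG1 (-0.11, up to 0.99 with other libraries left out) and GABRA4 (0.032, down to -0.66 with others left out). In the SST-type too, the setting of at least 50 nuclei per sum left no SNCG or CCK-type sum in the reference. The causes were not tested.

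Over all genes, indirect against direct nuclei gave 38 calls without the library term, against 90 with it. Between the animals, calls summed over 5 classes numbered 5542 with every library, 1838 without 17-month library 1 and 2016 without 17-month library 2, and between 1838 and 5348 over all libraries left out in turn. The block of replicate numbers 1 and 2 gave 4339. Same-numbered libraries of the 2 animals shared deviations only weakly (r of 0.02 and 0.10 across genes in excitatory nuclei, 2 pairs). Differently numbered pairs had r from -0.10 to 0.09. The deviations of the 2 libraries of the 17-month animal mirror each other, so these values are not independent. The numbers are not taken to pair the libraries. Thinning moved 147 of 161 shares of nuclei by more than 1 SD, and its mix differed in 30 of 161 values, by at most 14.0 percentage points. Low UMI sums limit GABRG1 in small classes, and 1 animal per age limits every comparison of the ages.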

Other observations

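The clusters left unnamed carried subunit levels of their own, given as values without a test. Within the excitatory nuclei, E5 (led by KIRREL1 and VIT) had GABRA3 at 149 ± 28.6 CPM (SD, n = 5), GABRG1 at 38.9 ± 17.5 CPM (SD, n = 5) and GABRB2 at 182 ± 48.7 CPM (SD, n = 5), while E3 (led by ERG, MLXIPL and NXPH2) had 118 ± 10.3 CPM, 6.26 ± 3.88 CPM and 325 ± 12.3 CPM of the same genes. GABRA5 was close in both, at 67.7 ± 9.46 CPM (SD, n = 5) in E5 and 78.6 ± 12.8 CPM (SD, n = 5) in E3. Within the inhibitory nuclei, the unnamed cluster I4, led by NTNG1 and LAMP5, shared the high GABRB2 of the LAMP5 or NDNF-type (877 ± 135 CPM, SD, n = 5). It also shared the low GABRA2 (44.8 ± 15.2 CPM, SD, n = 5). Cluster I4 differed in GABRA5, at 19.0 ± 6.72 CPM (SD, n = 5). Its libraries, at 14.2 to 30.5 CPM, overlapped the oligodendrocyte range of 20.1 to 34.4 CPM. GABRA3 stood at 91.1 ± 29.8 CPM (SD, n = 5) in I4. Among the VIP-type clusters, GABRB1 was 1154 ± 96.8 CPM (SD, n = 5) in I7 and 831 ± 59.4 CPM (SD, n = 5) in I6.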
